A study of Mus musculus with 2 samples.

Results

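Integrins are cell surface receptors built from 1 α and 1 β subunit, and focal adhesion proteins are the plaque that couples their tails to actin. The genes described here were those whose probes are named Itga or Itgb in the array annotation, without Itga2b, the Itgb1bp genes and Itgbl1, together with 18 named plaque genes. They came to 45 genes of 34786 and 71 probes of 55680: 26 integrin subunit genes, 18 plaque genes and Itgb3bp. The last, a centromere protein gene, matched by its name and belongs to neither group. Each gene was read by its brightest probe over both arrays.

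Expression was measured on 2 one-colour Agilent arrays, 1 for mice given decitabine (DAC), a cytosine analogue that traps DNA methyltransferases, and 1 for mice given phosphate-buffered saline (PBS). Both held RNA of sorted bone marrow LSK cells (Lineage-, Sca-1+, c-Kit+), the fraction with stem and multipotent progenitor cells, of C57BL/6 mice. All cells came from a myelodysplastic syndrome (MDS) of genotype Tet2KD/KD Ezh2Δ/Δ in secondary transplant recipients, 10 weeks past the transplant, and 7 weeks after either treatment. The controls therefore carried the same alleles as the treated cells, and the sources used here do not give the dose, the age or number of mice. With 1 array per group no difference has a replicate check, and fewer cells of a type cannot be told apart from less RNA per cell. The gate genes Kit and Ly6a, which encodes Sca-1, were well above background on both arrays, with log2 differences of 0.12 and 0.07.

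In blood stem cells, α4β1 and α6 integrins hold the cells to fibronectin, VCAM1 and laminin of the marrow niche. The β2 integrins are receptors of leukocytes, with ligands on endothelium. Talins and kindlins bind the short β tails and switch the receptor to its high-affinity form. Integrin-linked kinase (ILK), PINCH and parvins form a complex on the tail, paxillin and p130Cas are scaffolds for the kinases FAK and PYK2, and vinculin, zyxin, VASP and α-actinins tie the plaque to actin.

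Probes of Pxn, Vcl, Itga4 and Itgb1 are shown first, 5′ to 3′, at their mm9 positions from the array files. The Itga4 probe shown is not the brightest of its gene. Pxn is shown because it had the highest difference, Vcl and Itga4 because 2 probes each were higher with DAC, and Itgb1 because its probes went opposite ways. The Pxn probe lay at chr5:116004015-116004074 on the plus strand, the Vcl probe at chr14:21848574-21849035, the Itga4 probe at chr2:79153985-79155115 and the Itgb1 probe at chr8:131250081-131255976, all plus strand. The last 3 are 60 bases long but span 462, 1131 and 5896 bases of genome, so each crosses at least 1 intron. No exon annotation of mm9 was used here. Capitals in the Itgb1 probe mark the NPxY motif of β tails, which talins and kindlins bind, searched as a codon that opens with AA, a proline codon, any codon and a codon that opens with TA.
Pxn: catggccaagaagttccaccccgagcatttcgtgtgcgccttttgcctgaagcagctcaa
Vcl: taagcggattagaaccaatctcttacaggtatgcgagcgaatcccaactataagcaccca
Itga4: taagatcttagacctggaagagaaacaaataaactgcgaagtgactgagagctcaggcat
Itgb1: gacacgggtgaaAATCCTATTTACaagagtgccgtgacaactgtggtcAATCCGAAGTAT
The motif was searched on the probe's own strand, with overlaps allowed: 1.12% of all probes hold it at least once and 0.00718% hold it at least 2 times, as the Itgb1 probe does.

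A gene was called measured where both arrays read its brightest probe well above background. Of the 45 genes 25 were measured (55.6%, against 52.4% of all genes), 6 were well above background with DAC only (13.3%, against 9.52%), 3 with PBS only (6.67%, against 2.96%) and 11 on neither (24.4%, against 35.2%). Signals below are log2 of the processed intensity after each array's 75th percentile was subtracted, so 0 stands for that percentile. "With DAC" and "with PBS" name the 2 arrays. Differences are DAC minus PBS, and a log2 difference of 1 is 2-fold. The only error these files give is the spread of probes printed several times on an array: the SD of a difference was 0.32 for dim probes, 0.15 in the middle range and 0.091 for bright ones, for printing, hybridisation and scanning alone.

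**Figure D1:**
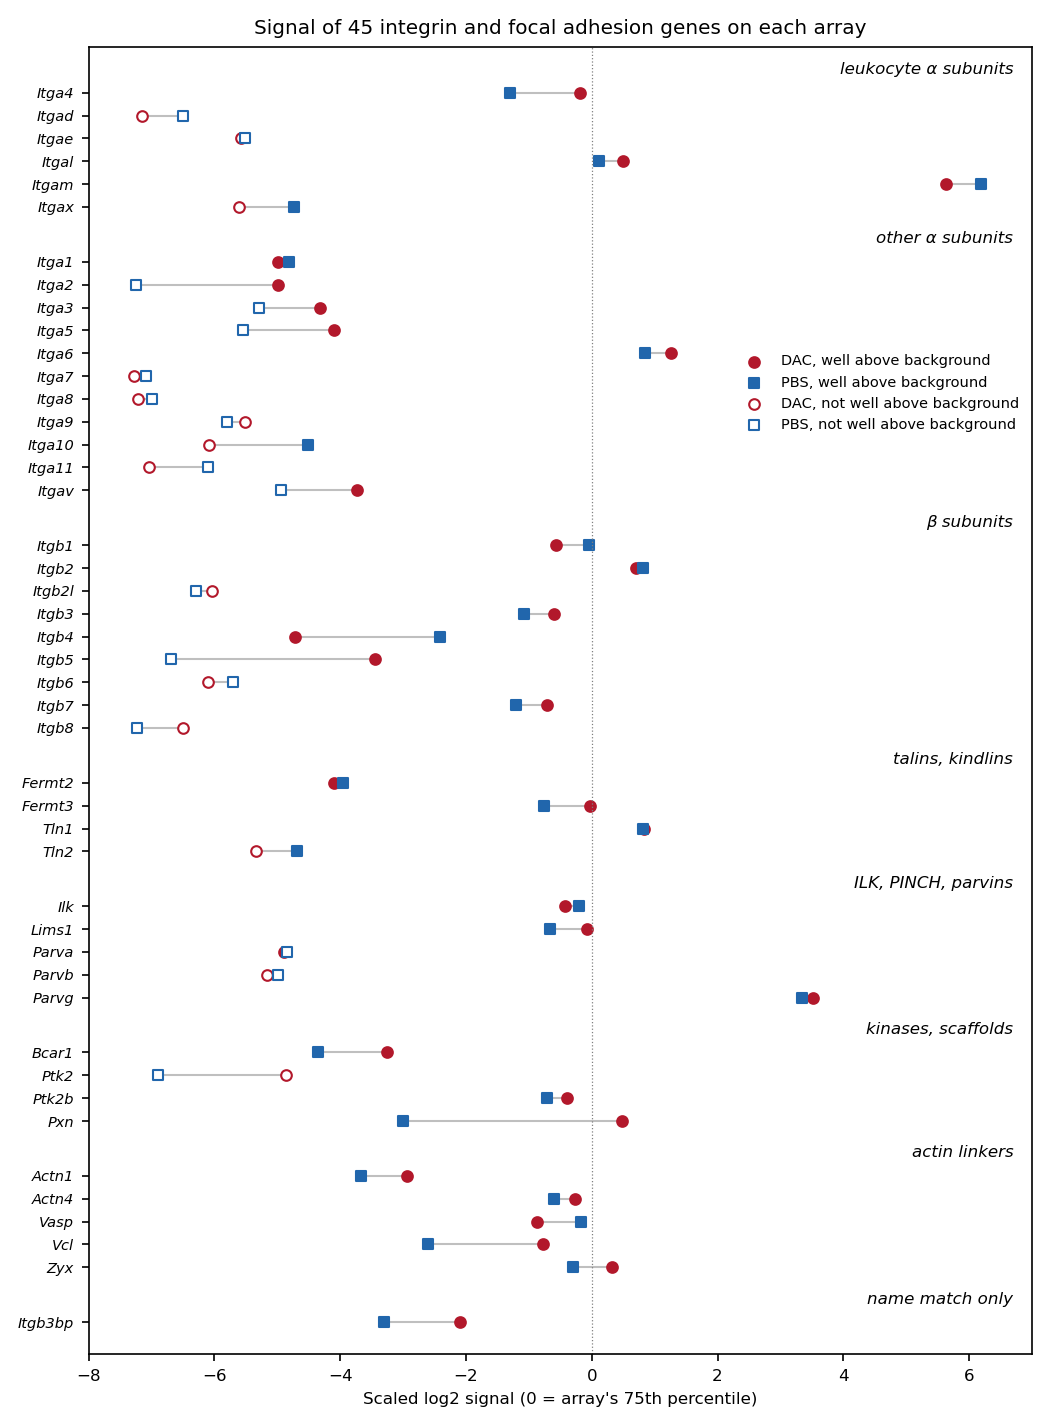
Scaled log2 signal (x axis, 0 is the array's 75th percentile) of the brightest probe of each of the 45 genes with DAC (red circles) and with PBS (blue squares), grouped by role. Open symbols are not well above background. The longest line between filled symbols is that of Pxn, at 0.48 with DAC and −3.00 with PBS.

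Of the 25 measured genes 5 were at least 2-fold higher with DAC, against 10.0% of all 18211 measured genes: Pxn, Vcl, Itgb3bp, Itga4 and Bcar1. Itgb4 was the 1 gene at least 2-fold lower, against 6.84% of all measured genes. The other 19 lay within 2-fold. The median difference was 0.39 over the 25 genes and 0.02 over all measured genes, and 17 of the 25 were above 0. This split depended on the scaling: the counts were 3 higher and 1 lower with scaling over all probes, median centring, quantile normalization, loess and the series matrix values, and 2 higher and 2 lower with spike-in scaling. The median of all genes then stood at −0.18 with scaling over all probes or the series matrix values, −0.10 with median centring, −0.09 with quantile normalization, −0.01 with loess and −0.29 with spike-in scaling. Differences given for single genes carry this shift. Past 2-fold in either direction were 16% of members under each of these scalings, against 16.6% to 19.0% of all measured genes. As reported, the shares were 24% and 16.9%.

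**Figure D2:**
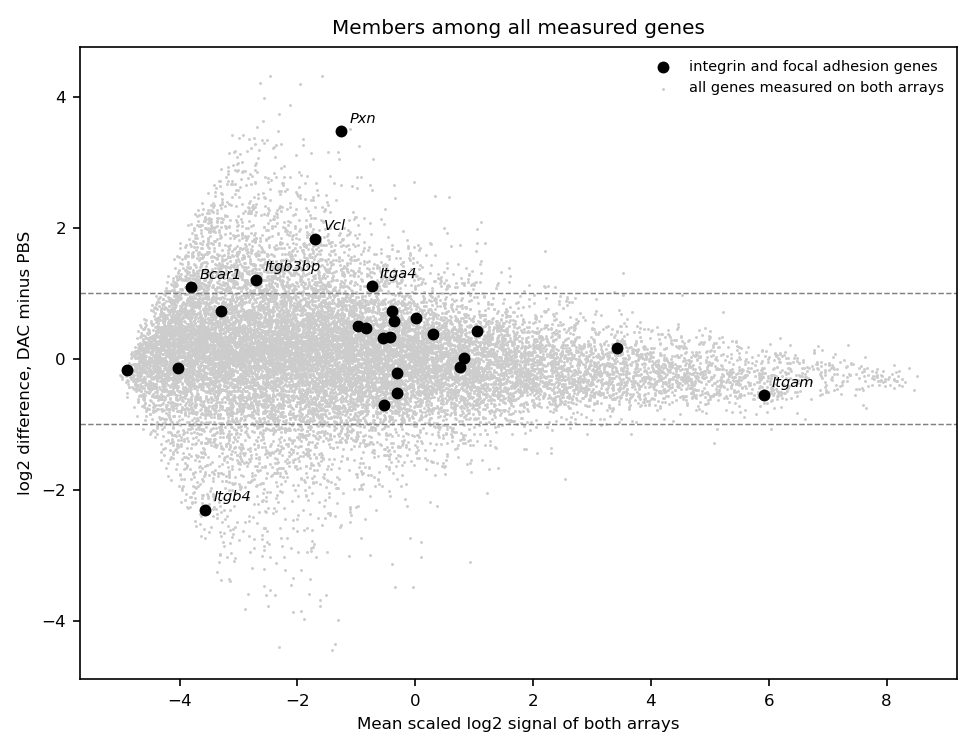
Log2 difference, DAC minus PBS (y axis), against the mean scaled log2 signal of both arrays (x axis), for the 25 measured integrin and focal adhesion genes (black) and all 18211 measured genes (grey). Dashed lines mark 2-fold, and Pxn at 3.48 and Itgb4 at −2.30 lie farthest from 0 among the black points.

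Scaffolds and kinases held the highest value. Pxn (NM_133915), which encodes the scaffold paxillin, had a signal of 0.48 with DAC and −3.00 with PBS, from processed intensities of 1134 and 77.3. It was thus 11.1-fold higher with DAC, by its only probe, where 1.86% of all measured genes were at least 4-fold higher. Under the 12 alternative settings its difference lay between 2.72 and 3.48. Bcar1, the gene of p130Cas, which is phosphorylated when adhesions are stretched, had −3.26 with DAC and −4.36 with PBS, a 2.14-fold difference at low signal. Its log2 difference of 1.09 was as low as 0.31 among the alternatives. Ptk2b, which encodes PYK2, the FAK relative of blood cells, had −0.39 with DAC and −0.71 with PBS on its brightest probe, a difference of 0.31, and −0.99 and −0.46 on its other probe, a difference of −0.53. Ptk2, the gene of FAK itself, was not well above background on either array by any of its 3 probes, the brightest of which read −4.86 with DAC and −6.90 with PBS.

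Of the 5 actin linkers 1 passed 2-fold upward and 4 lay within it, and their median was 0.63. Vcl, which encodes vinculin, the protein that reinforces talin under force, had −0.78 with DAC and −2.61 with PBS on the printed probe, 3.56-fold higher. Its other probe (chr14:21852105-21852164) read −1.69 with DAC and −2.28 with PBS, a log2 difference of 0.59, so both probes were higher but only the brighter passed 2-fold. The zyxin gene Zyx had 0.33 with DAC and −0.30 with PBS. The α-actinin genes Actn1 and Actn4 had differences of 0.73 and 0.33. Vasp, whose product extends actin filaments, ran the other way, at −0.88 with DAC and −0.17 with PBS.

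The talins, kindlins and the ILK complex stayed within 2-fold wherever they were measured. Tln1, the talin of blood cells, had 0.83 with DAC and 0.81 with PBS, and its difference of 0.02 changed sign with the scaling, from −0.29 to 0.12 over the settings. Fermt3, which encodes kindlin-3, the kindlin of blood cells, had −0.03 with DAC and −0.76 with PBS, and stayed above 0 in every setting (0.42 to 0.73). Fermt2, the kindlin gene of other tissues, had −4.09 and −3.96 with DAC and PBS. Tln2 was well above background with PBS only, with a bound of at least 1.41-fold lower with DAC. Ilk had −0.42 with DAC and −0.20 with PBS. Lims1, the PINCH gene, read 0.58 higher on its brightest probe and −0.19 on the other. Parvg, the blood cell parvin, had a difference of 0.17 that changed sign with the scaling (−0.14 to 0.36), while Parvb was not well above background on either array and Parva reached that call with DAC only, with no fold to give.

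**Figure D3:**
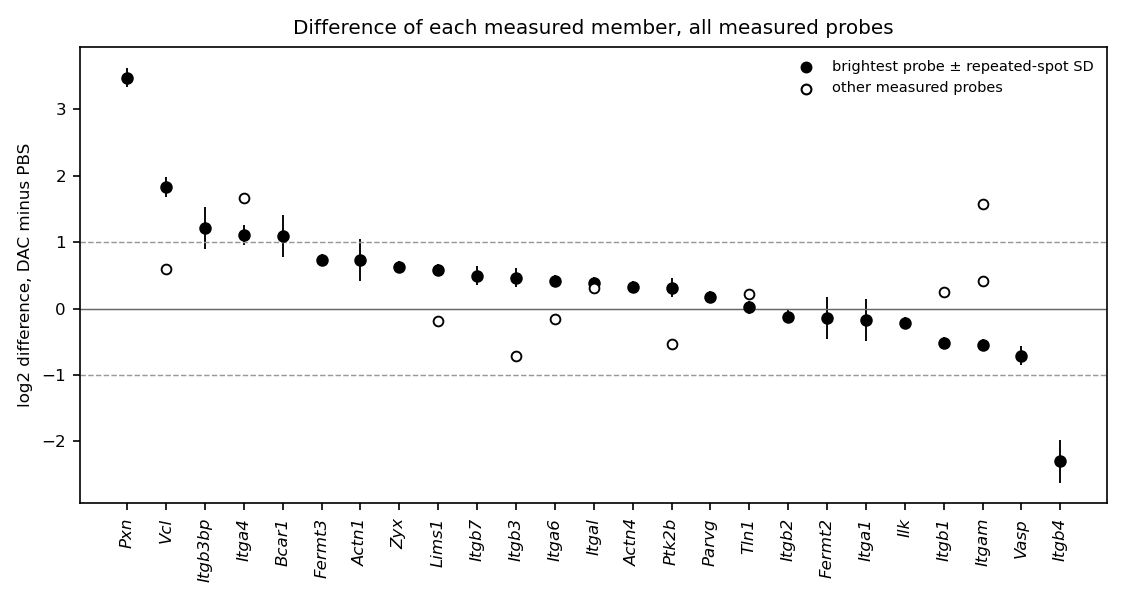
Log2 difference, DAC minus PBS (y axis), of the 25 measured genes in descending order: filled points are the brightest probe with the repeated-spot SD at its signal, open points the other measured probes. Dashed lines mark 2-fold. The open points of Lims1, Itgb3, Itga6, Ptk2b, Itgb1 and Itgam lie on the other side of 0 from the filled one.

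Among the integrin subunits 10 of 26 genes were measured: 1 passed 2-fold upward, 1 downward, and 8 stayed inside it, which is near the shares of all measured genes (10.0% and 6.84%). Their median difference was 0.13. Itga4 (NM_010576), the α4 subunit that binds VCAM1 and fibronectin in the niche, had −0.19 with DAC and −1.30 with PBS, 2.16-fold higher. On the printed probe it had −2.12 with DAC and −3.78 with PBS, a log2 difference of 1.67, so both probes passed 2-fold as reported. With normexp background correction the differences were 0.93 on the brightest probe and 0.83 on the printed one, both within 2-fold. The difference of Itga4 by the brightest probe lay between 0.80 and 1.11 over the settings, and the mean over both probes was 1.39. The partners of α4 did not share that size: Itgb1, the β1 subunit, had −0.57 with DAC and −0.05 with PBS on the printed probe and −0.29 and −0.54 on its other probe, for differences of −0.52 and 0.25. Itgb7, the β7 subunit that pairs with α4 for homing to gut, had −0.72 with DAC and −1.21 with PBS, a difference of 0.50.

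The laminin receptor subunit gene Itga6, a marker of blood stem cells, had 1.27 with DAC and 0.84 with PBS, a difference of 0.42. On its other probe it had 0.65 with DAC and 0.80 with PBS, a difference of −0.15. Of the β2 integrins, Itgb2 had 0.70 with DAC and 0.82 with PBS. Its partner Itgal, the α subunit of LFA-1, had 0.50 with DAC and 0.11 with PBS, with a difference of 0.30 on its next probe. Itgam, the α subunit of Mac-1 (CD11b), one of the lineage antigens that LSK sorts commonly gate out, had 5.64 with DAC and 6.19 with PBS on its brightest probe, a difference of −0.55. Its next probe had −2.30 with DAC and −2.72 with PBS, a difference of 0.42, and the last −2.23 with DAC and −3.81 with PBS, a difference of 1.58. The probes of Itgam thus went opposite ways. The brightest Itgam probe holds a run of 20 bases of alternating CA or TG, the only probe of the 71 with a run of at least 10, a length that 0.519% of all probes hold. Itgax was well above background with PBS only, at least 1.36-fold lower with DAC, and Itgad, Itgae and Itgb2l on neither.

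Itgb4, the laminin-binding β4 subunit of epithelia, was the lowest gene: its signal was −4.71 with DAC and −2.41 with PBS, with processed intensities of 31.0 and 116. The difference of −2.30, where 1.28% of all measured genes were at least 4-fold lower, rested on 1 probe at low signal and lay between −2.67 and −1.19 over the settings that gave it a value. Itgb3, the β3 subunit of platelets and stem cells, had −0.61 with DAC and −1.08 with PBS on its brightest probe, a difference of 0.47. Its other probe had −1.37 with DAC and −0.66 with PBS, a difference of −0.71, so its direction is not settled. Itga1, a collagen receptor subunit gene, had −4.98 with DAC and −4.81 with PBS.

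Among the 26 integrin subunits 5 were detected with DAC alone, as were 9.52% of all genes. Of the 45 genes 2 had such a bound of at least 2-fold, Itgb5 and Itgav, close to the 3.53% of all genes with one. Itgb5 (β5), a vitronectin receptor subunit gene, had −3.44 with DAC and −6.69, not well above background, with PBS, so it was higher by 2.80-fold or more. Its partner Itgav (αv) had −3.74 with DAC and −4.94 with PBS, higher by 2.28-fold or more, and by 2.25-fold or more on its other probe. The fibronectin receptor subunit gene Itga5 read −4.10 with DAC and −5.55 with PBS, for a bound of 1.78-fold or more. The laminin receptor subunit gene Itga3 had a bound of 1.52-fold or more, and for Itga2 no fold can be given. With normexp background correction the log2 differences were 0.51 for Itgb5, 0.15 for Itgav and 0.13 for Itga5, and that of Itga3 turned to −0.06. Itga10 was detected with PBS alone, as were 2.96% of all genes, and was lower with DAC by 1.59-fold or more. Itga9, a receptor subunit gene for tenascin and VCAM1, read −5.52 with DAC and −5.80 with PBS, not well above background on either array. The same call was made for Itga7, Itga8, Itga11, Itgb6 and Itgb8. The DAC array had more probes well above background in general, 56.8% against 48.5% with PBS.

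Probes of a gene often disagreed. Of 10 members with at least 2 measured probes 4 had 1 direction on all of them (Itga4, Itgal, Tln1 and Vcl), or 40.0%, against 52.7% of 4655 such genes on the array. Pxn, Bcar1 and Itgb4 had 1 probe each, and Itgb3bp had 1 measured probe, at −2.09 with DAC and −3.30 with PBS.

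**Figure D4:**
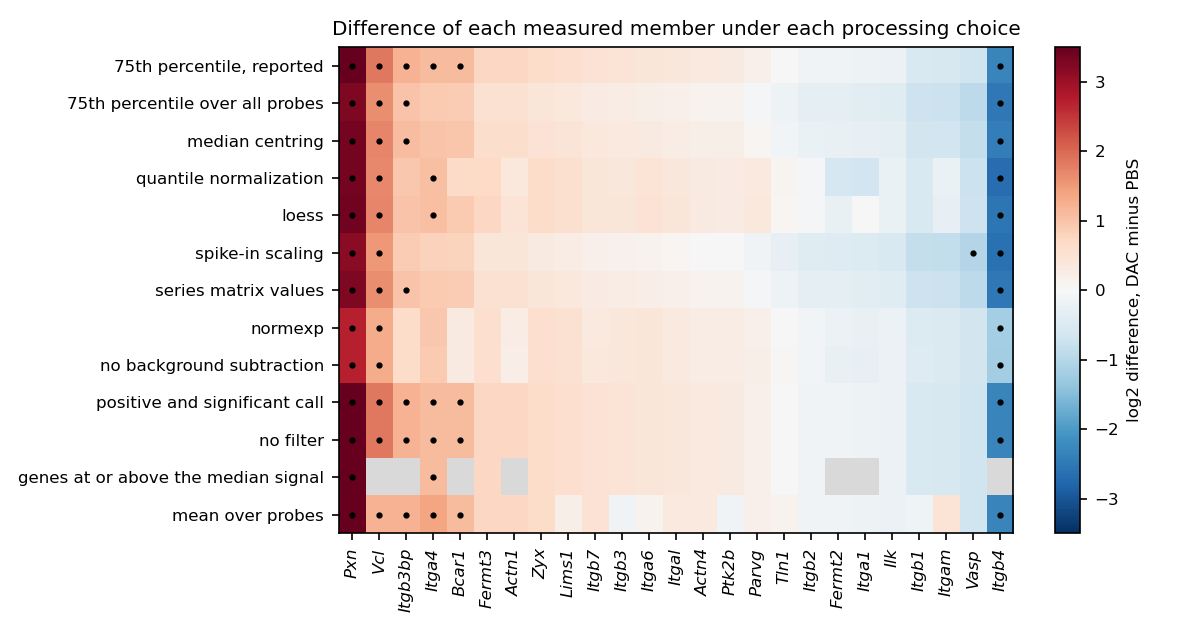
Log2 difference, DAC minus PBS (colour), of each measured gene (columns) under the reported and 12 alternative processing choices (rows). Dots mark differences of at least 2-fold, and grey cells have no value. Only the columns of Pxn, Vcl and Itgb4 are dotted under every choice that gives them a value.

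The genes around integrins were read by 4 lists. From these, genes are named among the measured ones past 2-fold, and genes detected on 1 array alone were picked after their values were seen. Over all measured genes 10.0% passed 2-fold upward and 6.84% downward. Over all genes 3.53% had a DAC-only bound of at least 2-fold and 1.51% a PBS-only one. Such a DAC-only bound was held by 3 of 26 ligand and matrix genes and 2 of 20 Rap1 genes. It was also held by 1 of 38 kinases and adaptors and 1 of 33 plaque genes. In each list 0 genes had such a PBS-only bound. The bounds of list and marker genes rest on the deposited background subtraction, and no normexp values are given for them. For the members Itgb5 and Itgav normexp left log2 differences of only 0.51 and 0.15, below their bounds. Among other adhesion plaque genes 6 of 23 measured ones passed 2-fold upward and 0 downward, and the median difference of the list was 0.55. The higher ones included Ppfia1 (2.52), a liprin that positions adhesions, the membrane-actin linker Svil (2.17), the vinculin-binding adaptor Sorbs3 (1.51), the hyaluronan receptor Layn (1.32) and the tensin Tns3 (1.16). The actin regulator Enah was detected with DAC alone, higher by 3.95-fold or more. Among kinases and adaptors downstream of integrins 6 of 32 passed 2-fold upward and 1 downward, and the median was 0.39. Git1 (1.90), which binds paxillin and carries the PIX exchange factors, the Rac effector kinase Pak1 (1.74), the adaptors Nck1 (1.67), Nck2 (1.64) and Grb2 (1.18) and the Src family kinase Fyn (1.30) were higher, and its relative Lyn was lower (−1.56).

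Inside-out activation by the small GTPase Rap1 had 1 of 15 measured genes past 2-fold upward (Fyb, 1.35, an adaptor that joins Rap1 signalling to talin) and 0 downward, near the shares of all genes. Its median was 0.22. Sipa1l1, a Rap GTPase activating gene, and Rapgef2, a Rap exchange factor, were detected with DAC alone, higher by 4.42-fold and 2.25-fold or more. Ligands and matrix had 1 of 12 measured genes past 2-fold upward (F11r, 1.70, the JAM-A ligand of LFA-1) and 1 downward (Fn1, fibronectin, −1.03), also near those shares. The median was −0.03. The laminin genes Lamc1 and Lama5 and the collagen gene Col4a2 were detected with DAC alone, higher by 10.6-fold, 3.99-fold and 4.47-fold or more. Vtn and Fga of this list were detected with PBS alone, each lower with DAC by 1.63-fold or more.

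**Figure D5:**
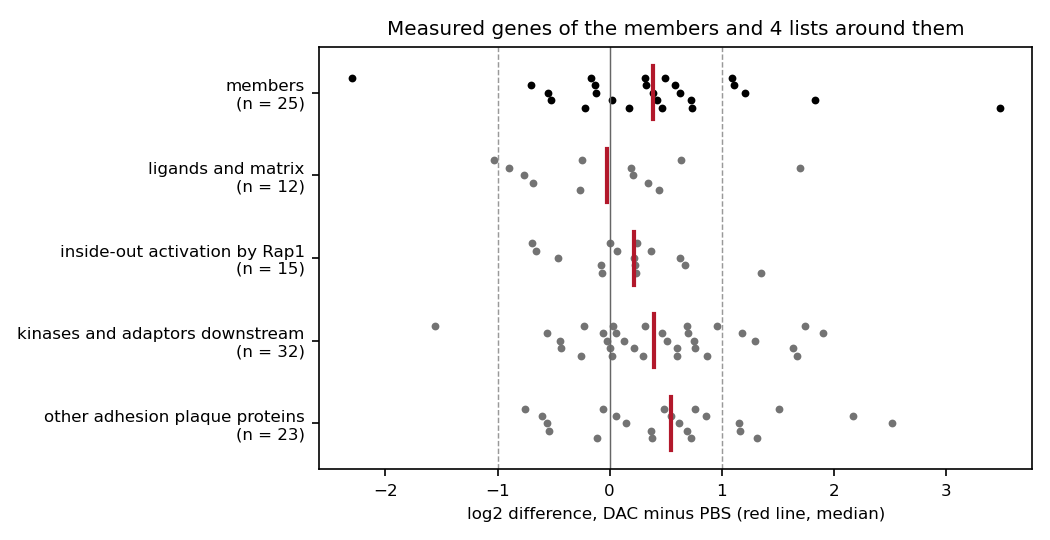
Log2 difference, DAC minus PBS (x axis), of each measured gene (points) of the integrin and focal adhesion genes (top) and 4 lists around them, with the median as a red line and 2-fold as dashed lines. The medians are 0.39 for the top row, −0.03 for ligands and matrix, 0.22 for Rap1 activation, 0.39 for kinases and adaptors and 0.55 for other plaque proteins.

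Marker genes of other cells also differed between the arrays. Of all measured genes 10.0% were at least 2-fold higher with DAC, 6.84% at least 2-fold lower and 51.4% above 0. Detection with DAC alone was the call of 9.52% of all genes. Marker differences carry the shift with scaling given above, so the calls of Itga2b and Pf4, close to 2-fold, depend on it. Of 6 measured megakaryocyte and platelet markers 3 were at least 2-fold higher with DAC: Treml1 (2.66), Itga2b (1.16), the partner of β3, and Pf4 (1.04). Gp5 (0.76) was above 0 but within 2-fold, while Gp9 (−0.14) and Gp1bb (−0.18) were below 0. Gp1ba was detected with DAC alone, higher by 1.16-fold or more, and Ppbp and Gp6 were not well above background on either array. Treml1 was dim with PBS, at −4.75, where the lowest signal well above background was −4.93. The summed signal of the 9 markers was 3.02 times the 75th percentile with DAC and 1.90 times with PBS. Of the 9 monocyte and macrophage markers on the array 4 were detected with DAC alone, Adgre1 and Lgals3 at least 4.97-fold and 3.84-fold higher, and the sums were 6.66 and 5.85 with DAC and PBS. Mast cell, basophil and eosinophil markers summed to 1.61 with DAC and 4.92 with PBS. Of 5 measured ones 3 were at least 2-fold lower with DAC, while Epx (1.20) and Mcpt8 (0.37) were higher. Erythroid markers summed to 3.42 with DAC and 4.97 with PBS, with 4 of 5 measured ones below 0 and Gata1 at −2.02. Tfrc went the other way (0.60), and Epor was detected with DAC alone, higher by 2.83-fold or more. All 5 measured B cell markers were above 0, with a median of 0.76 and Pax5 at 1.28, and the list summed to 13.5 with DAC and 10.05 with PBS. Neutrophil markers summed to 5.94 with DAC and 6.92 with PBS, dendritic cell markers to 7.24 and 9.40, and T and NK cell markers to 1.11 and 1.19.

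Endothelial and stromal markers summed to 1.86 with DAC and 1.44 with PBS and went both ways. Pecam1, an adhesion receptor of endothelium, platelets and stem cells, had −0.76 with DAC and −3.70 with PBS, and Emcn had a difference of 1.56 and Kdr one of 0.16. Cxcl12 was lower, by a difference of −1.42, and Col3a1 and Fabp4 were detected with PBS alone, lower with DAC by 2.46-fold and 5.70-fold or more. Cdh5, Col1a1 and Lepr were not well above background on either array. The part of these cells in the differences of the integrin and focal adhesion genes was not tested.

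The start sites of the members varied in CG content, here the number of CG pairs in the 250 bases before the start, counted on sequence credited to RefSeq (GRCm38.p6, a build other than that of the probes). Of the 45 genes 32 had an entry, and where a gene had several starts the one richest in CG was taken. The 18 measured members among them had a median of 15 CG pairs, against 16 over all measured genes with an entry, and ranged from 1 in Fermt3 to 32 in Ilk. All 32 held at least 1, as did 92.3% of all promoters. The 4 higher members with an entry had 6 (Itga4), 15 (Itgb3bp), 22 (Bcar1) and 24 (Vcl), the 5 detected with DAC alone had 11 to 22, and Itga10 and Itgax, detected with PBS alone, had 2 and 5. The start regions of Vcl (chr14:20929148-20929397) and Itga4 (chr2:79255176-79255425), both plus strand, are shown because these genes were higher on both probes yet differ in CG content, with each CG in capitals. No methylation was measured in these files.
Vcl: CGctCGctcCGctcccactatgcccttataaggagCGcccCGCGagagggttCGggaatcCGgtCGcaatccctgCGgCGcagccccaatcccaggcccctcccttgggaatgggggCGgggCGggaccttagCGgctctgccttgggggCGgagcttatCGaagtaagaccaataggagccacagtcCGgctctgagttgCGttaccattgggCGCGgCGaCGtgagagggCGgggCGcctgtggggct
Itga4: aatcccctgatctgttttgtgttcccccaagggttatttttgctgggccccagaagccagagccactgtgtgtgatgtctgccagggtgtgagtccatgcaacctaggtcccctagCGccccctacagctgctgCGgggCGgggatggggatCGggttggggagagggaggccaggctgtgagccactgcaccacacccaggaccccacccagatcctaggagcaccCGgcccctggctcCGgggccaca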

How the data were processed

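Total RNA was labelled with Cy3 after amplification with a Low Input Quick Amp kit, per the labels' protocols. Spots were read by Agilent Feature Extraction 10.7.3.1 with probe positions on mm9, per the file headers. The deposited processed intensity is background-subtracted and spatially detrended and is not normalized between arrays. The deposited series matrix holds log2 values with a median of 0 in each column. Its difference between columns followed that of the log2 processed intensity with a slope of 1.00 and an offset of −0.60 over 55680 probes, so scale and direction are known, while the baseline of each probe is not.

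From these files, control spots and spots the scanner software marked as outliers were dropped and repeated spots averaged as log2 values. The well-above-background call needed 50% or more of a probe's spots. From each array was subtracted its 75th percentile, taken over the 25404 probes (45.6%) with that call in both groups. A gene found on 1 array only got a bound: its signal there against the higher of its signal and the lowest signal well above background on the other array. Genes were named through RefSeq accession (26761 probes), current symbol (3819), synonym (639) or the file (24461). No test was possible with single arrays, so genes were counted at 2-fold. The 75th percentiles were 813 (DAC) and 618 (PBS), no spot was saturated, and the number of arrays limits the precision. Values are given for members past 2-fold, members on 1 array only with a bound of at least 2-fold, and 19 integrin and adhesion genes named whatever their values; values of other members were added after they were seen. The members and lists were chosen with earlier results of these data known. The alternatives were 6 scalings, 2 background corrections (normexp with an offset of 50 by limma 3.58.1, and none), 3 filters and the mean over probes. The counting was tested on simulated data. Some genes of the lists are not reported here.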

Additional observations from a re-analysis of the deposited data

How the results depend on the processing

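With 12 alternatives to the reported 5 higher, 1 lower and a median of 0.39, the count of members at least 2-fold higher was 3 with scaling over all probes, median centring, quantile normalization, loess and the series matrix values. It was 2 with spike-in scaling, normexp, no background subtraction and for the 18 members no dimmer than the median. It was 8 of 39 with the positive and significant call, 10 of 45 with no filter and 5 with the mean over probes. The share of all genes moved too. Past 2-fold in either direction were 24% of members and 16.9% of all genes as reported, 16% and 19.0% with spike-in scaling, and 12% and 8.09% with normexp. With no filter the shares were 26.7% and 24.2%. The count at least 2-fold lower was 2 with spike-in scaling, the positive and significant call and no filter, 0 for genes no dimmer than the median and 1 otherwise. The median was 0.18 with scaling over all probes and with the series matrix values, 0.076 with spike-in scaling, which rested on 1 of 10 spike-in probes, 0.20 with the mean over probes, and 0.26 to 0.41 otherwise. The cause was not tested, beyond the fewer or more genes that the filters keep. No called difference changed sign. No paired analysis was possible because the groups share 1 replicate number, and leaving out a replicate or blocking by slide was not possible with 1 array per group. Signal over background limits the bounds and dim genes: with normexp the difference of Bcar1 was 0.32, of Itgb3bp 0.64, of Actn1 0.25 and of Itgb4 −1.19, and that of Pxn 2.73.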
